A study of Mus musculus with 24 samples.

Results

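Radial glia are the stem cells of the developing cerebral cortex. Their cell bodies line the ventricle, their long fibre reaches the outer surface of the brain, and they divide to renew themselves and to give rise, directly or through intermediate progenitors, to cortical neurons. The 10 genes described here are commonly used to recognize these cells and were chosen by name, with earlier results of these data known. Pax6, Sox2, Emx2, Lhx2 and Sox9 encode transcription factors of cortical progenitors. Vim and Nes encode the intermediate filament proteins vimentin and nestin that fill the radial fibre. Fabp7 encodes brain lipid-binding protein, Slc1a3 the glutamate transporter GLAST, and Prom1 the apical membrane protein prominin. All 10 were found among 54658 genes in the table, all were above the filter on low values in every comparison, and none was at 0 in any library.

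The 24 libraries were made from mouse embryos that were Cep135 (+/+), here controls, or Cep135 (-/-), here mutants, with 3 embryos per genotype at each age. CEP135 is a centriole protein needed for centrosome duplication, and the mutant allele was a germline CRISPR deletion carried by every cell of the embryo, on a C57BL/6J background. Dorsal telencephalon was taken as tissue at embryonic day E11.5 and at E14.5, and cells from the same E14.5 cortices were dissociated and kept in suspension with EGF and FGF2 for 12 h or 24 h to form early neurospheres. No drug was given to any group, and each E14.5 embryo gave a cortex, a 12 h and a 24 h library. The cultures are labelled cortical neural progenitors, but they also held neuronal transcripts. The summed level of 10 postmitotic neuron markers was 35339 to 52373 normalized read counts in the cultures against 36420 to 48626 in the E14.5 cortices, and none of these markers was at 0.

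Every level below is a normalized read count, the number of reads divided by 1 size factor per library. Libraries held 4732781 to 11645213 reads on genes. At 24 h the mutant libraries were deeper (7903426 to 11645213 reads) than the controls (4732781 to 5709443). Gm42418, a gene overlapping ribosomal RNA sequence, took 20.5 to 23.0% of mutant reads at 24 h against 6.26 to 13.9% of control reads. At 12 h this share was 18.9 to 32.7% in mutants and 10.7 to 34.8% in controls, highest in control 4. The fewest reads behind any value of a radial glia marker were 63, for Pax6 in 1 control culture, where counting alone gives an error of 12.6%. Cep135 tags were found at like levels in both genotypes, for example 171 to 271 in E14.5 controls and 173 to 283 in mutants. Libraries of this kind read transcript 3′ ends, so they say nothing of a small deletion near the start of the gene. From Xist, 0 of 3 E14.5 controls and 2 of 3 E14.5 mutants were female. At E11.5 these numbers were 1 of 3 and 2 of 3. The labels of the cortex of mutant embryo 6 disagree on its age, with E14.5 in its title and source and E11.5 in its description, and it was taken as E14.5.

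The 10 genes lie on chromosomes 2, 3, 5, 10, 11, 15 and 19 of GRCm38. Sox2 (chr3:34650405-34652461, plus strand) lies inside the longer Sox2ot transcript on the same strand, with 0% of its exon bases shared with annotated Sox2ot exons. Promoter entries of RefSeq for GRCm38.p6 matched 9 of the 10 genes, in 12 windows. The 250 bases before the RefSeq start are shown for Vim (chr2:13574061-13574310), Nes (chr3:87970843-87971092) and Fabp7 (chr10:57784673-57784922), all on the plus strand, because these genes took different courses in culture. The GENCODE annotation starts these genes earlier, at 13573927, 87971078 and 57784881. By it the window of Vim lies wholly inside the gene and those of Nes and Fabp7 run into it. Capitals mark, on either strand, TATAAA (the TATA box), CCAAT (the CCAAT box), GGGCGG (the GC box) and TGGGAA (core letters of the site bound by RBPJ, the DNA-binding partner of Notch), none of which overlapped another in these windows.
Vim: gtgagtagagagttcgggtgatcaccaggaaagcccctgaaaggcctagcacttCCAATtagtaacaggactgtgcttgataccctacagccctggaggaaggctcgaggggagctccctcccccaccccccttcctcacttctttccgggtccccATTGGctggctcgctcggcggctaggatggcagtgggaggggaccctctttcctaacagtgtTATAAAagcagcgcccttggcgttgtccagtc
Nes: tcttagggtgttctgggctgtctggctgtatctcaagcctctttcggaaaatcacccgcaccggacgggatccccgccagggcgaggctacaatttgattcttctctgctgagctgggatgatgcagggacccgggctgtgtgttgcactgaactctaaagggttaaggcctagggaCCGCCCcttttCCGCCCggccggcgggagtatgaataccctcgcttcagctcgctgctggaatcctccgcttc
Fabp7: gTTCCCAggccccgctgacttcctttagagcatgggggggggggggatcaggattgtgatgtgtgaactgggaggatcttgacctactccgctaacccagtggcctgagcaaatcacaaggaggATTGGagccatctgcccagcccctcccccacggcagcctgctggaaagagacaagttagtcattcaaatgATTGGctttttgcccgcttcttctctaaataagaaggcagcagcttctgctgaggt
Vim carried TATAAA at position -32 from the start and CCAAT on both strands. Nes carried GGGCGG at 2 places on the minus strand, and Fabp7 carried CCAAT at 2 places and TGGGAA at 1 place, all on the minus strand. Over the 12 windows, CCAAT was found in 7, GGGCGG in 6, TGGGAA in 5 and TATAAA in 2. Among all 32851 windows of this length, CCAAT was in 33.8%, GGGCGG in 32.7%, TGGGAA in 21.6% and TATAAA in 12.4%. These matches describe the letters only.

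Between E11.5 and E14.5, 7 of the 10 radial glia markers fell and 2 rose, and the 2 that rose were Slc1a3 and Fabp7. The test was limma on log2(normalized read count + 1) with Benjamini-Hochberg adjustment over all genes, a gene passing at an adjusted p under 0.05, and both genotypes entered it with 6 embryos per age. Of all 13650 genes tested, 29.5% passed as lower and 24.1% as higher, so a change with age was common in the whole table. The median log2 difference was -0.58 over the 10 markers and -0.08 over all genes.

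**Figure D1:**
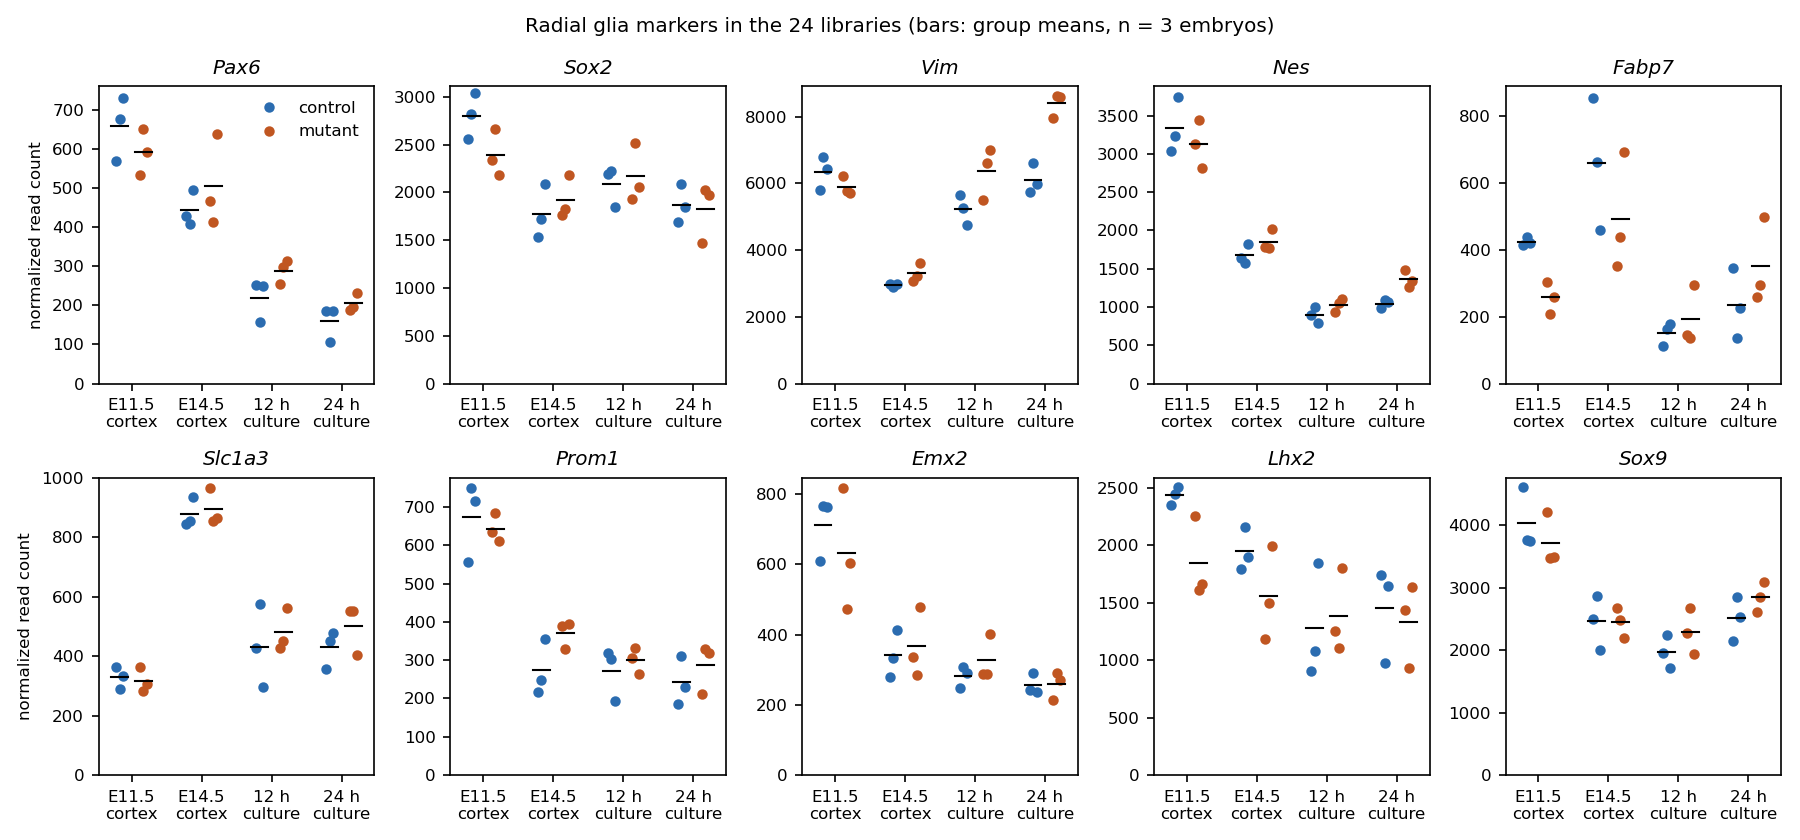
Normalized read count (y axis, linear, from 0) of each radial glia marker in the 24 libraries by condition (x axis), with controls in blue, mutants in orange and bars at the mean of 3 embryos. Vim and Nes are both lower at E14.5 than at E11.5 in every embryo, but in culture Vim is above its E14.5 level in every library and Nes is below it.

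Both filament genes fell, and no E14.5 embryo reached the E11.5 range. Vim ranged from 5718 to 6794 (median 6001) at E11.5 and from 2890 to 3614 (median 3029) at E14.5, a log2 difference of -0.97 (SE 0.07, adjusted p 4.97e-08). Nes ranged from 2815 to 3738 (median 3185) and from 1580 to 2012 (median 1775), a difference of -0.87 (SE 0.08, adjusted p 4.74e-07). Prom1 fell further, from 556 to 749 (median 660) at E11.5 to 218 to 394 (median 342) at E14.5 (-1.06, SE 0.12, adjusted p 2.87e-06).

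Of the transcription factors, Emx2, Sox9, Sox2 and Pax6 fell and Lhx2 did not pass. Emx2, a factor of the caudal and medial cortex, ranged from 473 to 817 at E11.5 and from 279 to 478 at E14.5 (-0.93, SE 0.15, adjusted p 0.000115), with 5 of 6 E14.5 embryos below the E11.5 range. Sox9 went from 3466 to 4615 to 2008 to 2872 (-0.66, SE 0.10, adjusted p 5.76e-05) and Sox2, a factor of neural stem cells, from 2180 to 3035 to 1528 to 2178 (-0.49, SE 0.09, adjusted p 0.000453), with no overlap between the ages for either. Pax6, the factor that specifies dorsal cortical progenitors, went from 532 to 730 to 409 to 637 (-0.40, SE 0.11, adjusted p 0.00639), with 1 E14.5 embryo, mutant 6, inside the E11.5 range. Lhx2, which keeps cortical identity, was at 1611 to 2507 and 1182 to 2155 (-0.29, SE 0.12, adjusted p 0.0503) and did not pass. Its adjusted p was 0.00538 to 0.142 when single embryos were left out, lowest without mutant embryo 6 of E14.5 and below 0.05 also without E14.5 control 4 (0.0447) or E11.5 mutant 2 (0.036). Embryo 6 is the one with the unclear age label, and without its cortex 8 of the 10 markers were called lower with age and 2 higher, while at 12 h of culture 4 were called lower and 1 higher. The summed level of the postmitotic neuron markers was 36420 to 38286 in the E14.5 mutants, embryo 6 included, against 10080 to 15037 at E11.5.

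Slc1a3 and Fabp7, the members that serve glutamate uptake and fatty acid binding, went the other way. Slc1a3 ranged from 282 to 364 (median 321) at E11.5 and from 845 to 967 (median 860) at E14.5, a 2.75-fold rise (log2 difference 1.46, SE 0.09, adjusted p 4.63e-09) with the ages far apart. Fabp7 ranged from 210 to 439 (median 360) and from 351 to 854 (median 562), a 1.67-fold rise (0.74, SE 0.17, adjusted p 0.00169), and 4 of 6 E14.5 embryos lay above the E11.5 range.

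Markers of other cells moved with age as well. All 6 dividing cell markers were lower at E14.5, with a summed level of 8848 to 14078 against 17632 to 20788, and all 10 postmitotic neuron markers were higher, with 36420 to 48626 against 10080 to 15037. Among 8 intermediate progenitor markers 3 were higher and 2 lower, with summed levels of 3987 to 4552 and 2641 to 3532. In whole tissue, fewer radial glia and less RNA per radial glial cell cannot be told apart. All E14.5 libraries carry 1 prefix in their titles and the E11.5 libraries 2 others, so age and whatever the prefix stands for cannot be told apart either.

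**Figure D2:**
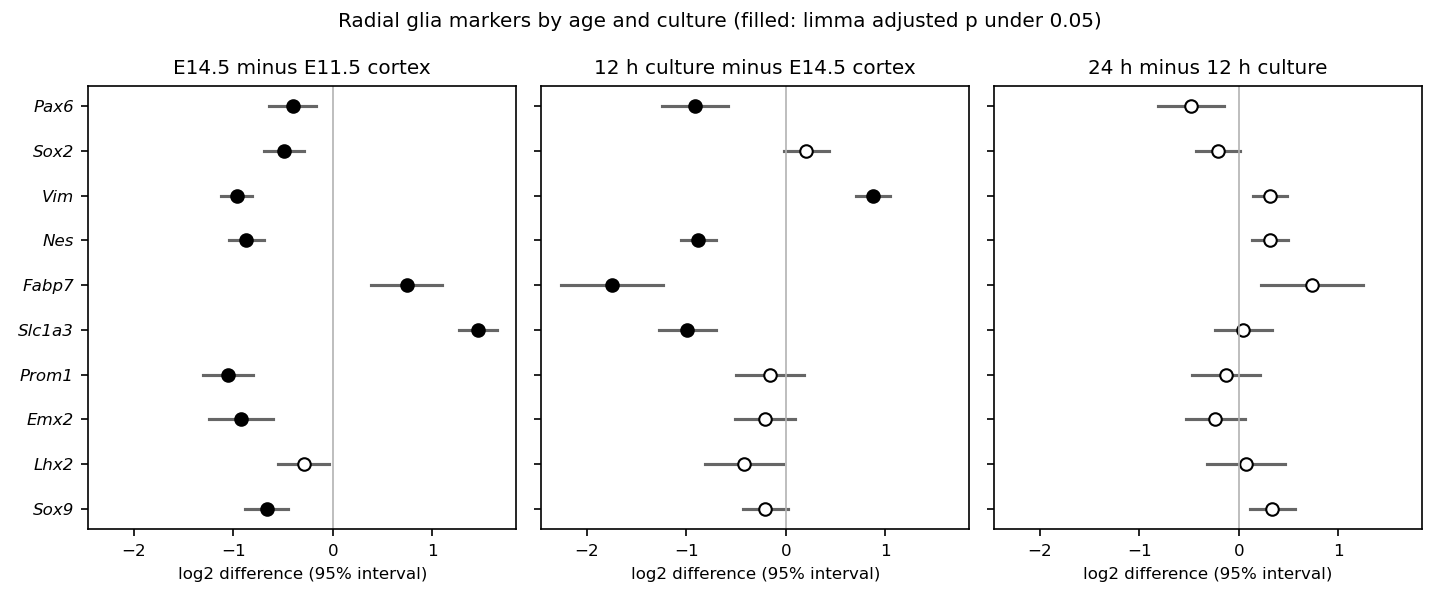
Fitted log2 difference (x axis) with its 95% interval for each radial glia marker (y axis) between ages (12 embryos), between 12 h culture and E14.5 cortex and between 24 h and 12 h culture (6 embryos each), with filled points for an adjusted p under 0.05. Vim is lower with age (-0.97) and higher in culture (0.88), while Fabp7 and Slc1a3 are higher with age and lower in culture.

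After 12 h in culture Vim was higher than in the E14.5 cortex, Fabp7, Slc1a3, Pax6 and Nes were lower, and the other 5 radial glia markers did not pass. The background was 16.2% of 13547 genes called higher and 17.7% called lower. These E14.5 cortices are the same libraries as in the comparison of ages, so the 2 comparisons are not independent. Vim stood at 5506, 6619 and 7007 in the mutant cultures and 5666, 5259 and 4750 in the control cultures, against 3062, 3236 and 3614 in the mutant cortices and 2995, 2890 and 2990 in the control cortices. It rose in 6 of 6 embryos, by 1.84-fold (log2 difference 0.88, SE 0.08, adjusted p 9.21e-08).

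Nes, the partner filament gene, did the opposite. It stood at 933, 1056 and 1097 in mutant and 898, 1005 and 788 in control cultures, against 1778, 1771 and 2012 in mutant and 1639, 1580 and 1828 in control cortices. It fell in 6 of 6 embryos (-0.88, SE 0.09, adjusted p 1.57e-07), to about the same extent as Vim rose on the log2 scale.

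Fabp7 had the largest change of the 10 markers at this step. It stood at 144, 137 and 296 in mutant and 112, 163 and 178 in control cultures, against 351, 438 and 692 in mutant and 854, 664 and 459 in control cortices. This was 3.36-fold lower (log2 difference -1.75, SE 0.25, adjusted p 1.9e-05) and fell in 6 of 6 embryos, over a wide range of log2 changes from -2.92 to -1.22. Slc1a3 went from 845 to 967 in the cortices to 295 to 574 in the cultures (-0.99, SE 0.14, adjusted p 1.45e-05). Pax6 went from 409 to 637 to 157 to 313 (-0.92, SE 0.16, adjusted p 0.000178), and neither gene's cultures overlapped the cortices.

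The other transcription factors and Prom1 moved less. Sox2 differed by 0.21 (95% interval -0.02 to 0.43, adjusted p 0.145), Sox9 by -0.21 (-0.43 to 0.02, adjusted p 0.146), Emx2 by -0.21 (-0.51 to 0.09, adjusted p 0.28) and Prom1 by -0.16 (-0.50 to 0.19, adjusted p 0.488). Lhx2 differed by -0.42 (SE 0.19, adjusted p 0.0908) and was lower in 5 of 6 embryos. With the embryo as a replicate block, which the shared embryos allow, the same difference of Lhx2 had an adjusted p of 0.0347. Under quantile normalization Lhx2 (-0.54, adjusted p 0.0362) and Sox9 (-0.34, adjusted p 0.0152) passed as well. Leaving out the 12 h library of control 5 or mutant 6 also brought Lhx2 past the threshold (adjusted p 0.0171 and 0.0371), and with a term for the share of Gm42418 its difference was -0.12 (adjusted p 0.759).

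Vimentin is also made by endothelial, mesenchymal and microglial cells, and markers of all 3 cell types fell in the cultures in which Vim rose. All 7 endothelial markers were lower at 12 h, with a summed level of 31.1 to 125 against 1009 to 1161 in the cortices, and Cldn5 was at 0 in all 12 h control cultures. All 6 mesenchymal markers were lower (119 to 276 against 1465 to 2476), as were all 7 microglial markers that could be tested (6.31 to 44.0 against 429 to 997). Of 9 erythroid markers 8 were higher, with summed levels of 69448 to 153171 against 38256 to 45371. Of 6 dividing cell markers 4 were lower, with 6321 to 9525 against 8848 to 14078. The part of these changes in the results for the radial glia markers was not tested.

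**Figure D3:**
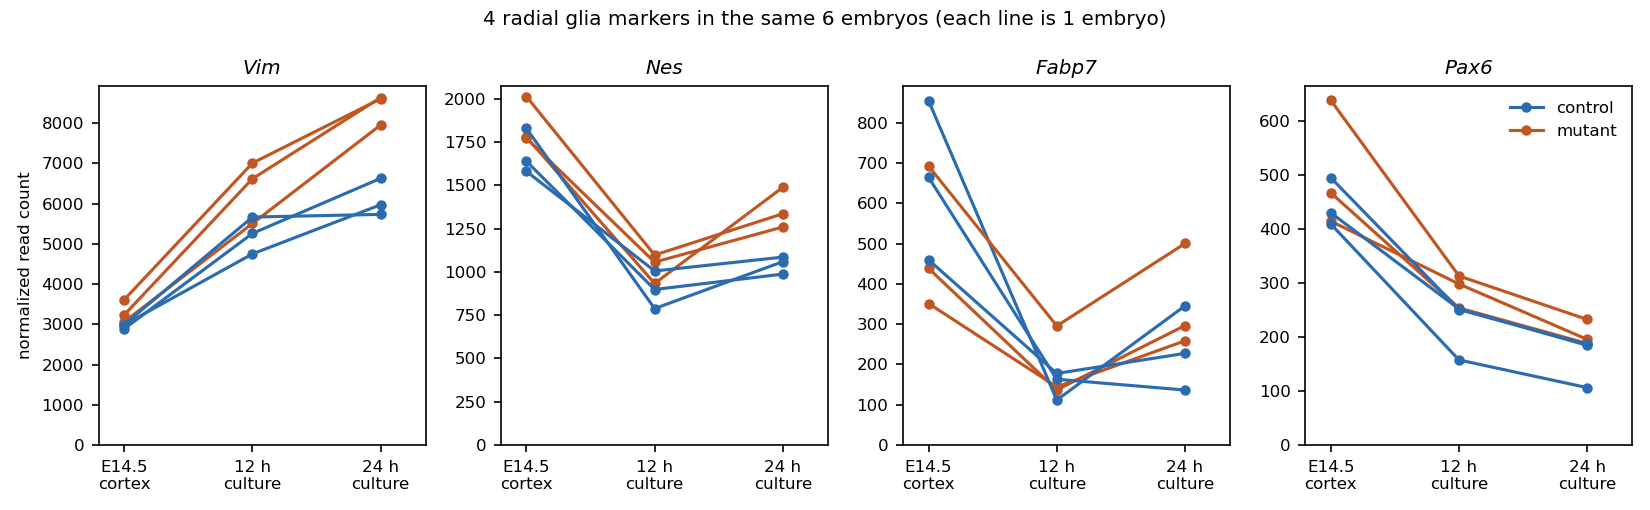
Normalized read count (y axis, from 0) of Vim, Nes, Fabp7 and Pax6 in the E14.5 cortex and the 12 h and 24 h cultures (x axis) of the same 6 embryos, 1 line per embryo, controls in blue and mutants in orange. Vim rises and Pax6 falls at both steps in every embryo, and the 3 mutant embryos lie above the 3 controls for Vim, Nes and Pax6 at 24 h.

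Between 12 h and 24 h of culture 0 of 10 radial glia markers passed with limma, although 5 had an unadjusted p under 0.05. The background was 0.664% of 13547 genes, and 12% of them had an unadjusted p under 0.05. edgeR also called 0 of the 10, and DESeq2 called 2, Vim (adjusted p 0.0221) and Nes (0.0483), both higher at 24 h. Vim stood at 7954, 8636 and 8605 in mutant and 5732, 6628 and 5971 in control cultures at 24 h. It was higher than at 12 h in 6 of 6 embryos (log2 difference 0.32, 95% interval 0.14 to 0.49, adjusted p 0.0916 with limma), and with all 24 libraries in 1 fit its adjusted p was 0.0421.

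Nes and Sox9 shared this direction in every embryo. Nes stood at 1488, 1259 and 1336 in mutant and 987, 1085 and 1059 in control cultures (0.31, 95% interval 0.14 to 0.49, adjusted p 0.114). Sox9 stood at 2610, 2841 and 3096 in mutant and 2148, 2846 and 2535 in control cultures (0.34, 0.11 to 0.56, adjusted p 0.192). Both levels were higher than at 12 h in 6 of 6 embryos, and Nes remained below its E14.5 level in all of them.

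Pax6 had the opposite sign in every embryo. It stood at 188, 195 and 232 in mutant and 184, 106 and 186 in control cultures, lower than at 12 h in 6 of 6 embryos by -0.61 to -0.43 on the log2 scale (fitted -0.48, adjusted p 0.198). With the embryo as a block the adjusted p was 0.0627. Fabp7 stood at 259, 297 and 500 in mutant and 345, 136 and 228 in control cultures, higher than at 12 h in 5 of 6 embryos (0.74, 95% interval 0.22 to 1.25, adjusted p 0.205), the exception being control embryo 4. The fitted differences of Sox2, Slc1a3, Prom1, Emx2 and Lhx2 lay between -0.24 and 0.07, with adjusted p from 0.452 to 0.933.

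Mutants and controls were compared in each condition to ask whether loss of Cep135 altered these transcripts, and with limma 0 of the 10 radial glia markers passed in any of the 4 conditions. The background was as low: 0.0149% of genes passed at E11.5, 0.0736% at E14.5, 0% at 12 h and 0.271% at 24 h. With 3 embryos against 3, an exact permutation test of a single gene cannot go below a two-sided p of 0.1. The intervals below show what differences these libraries leave possible.

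**Figure D4:**
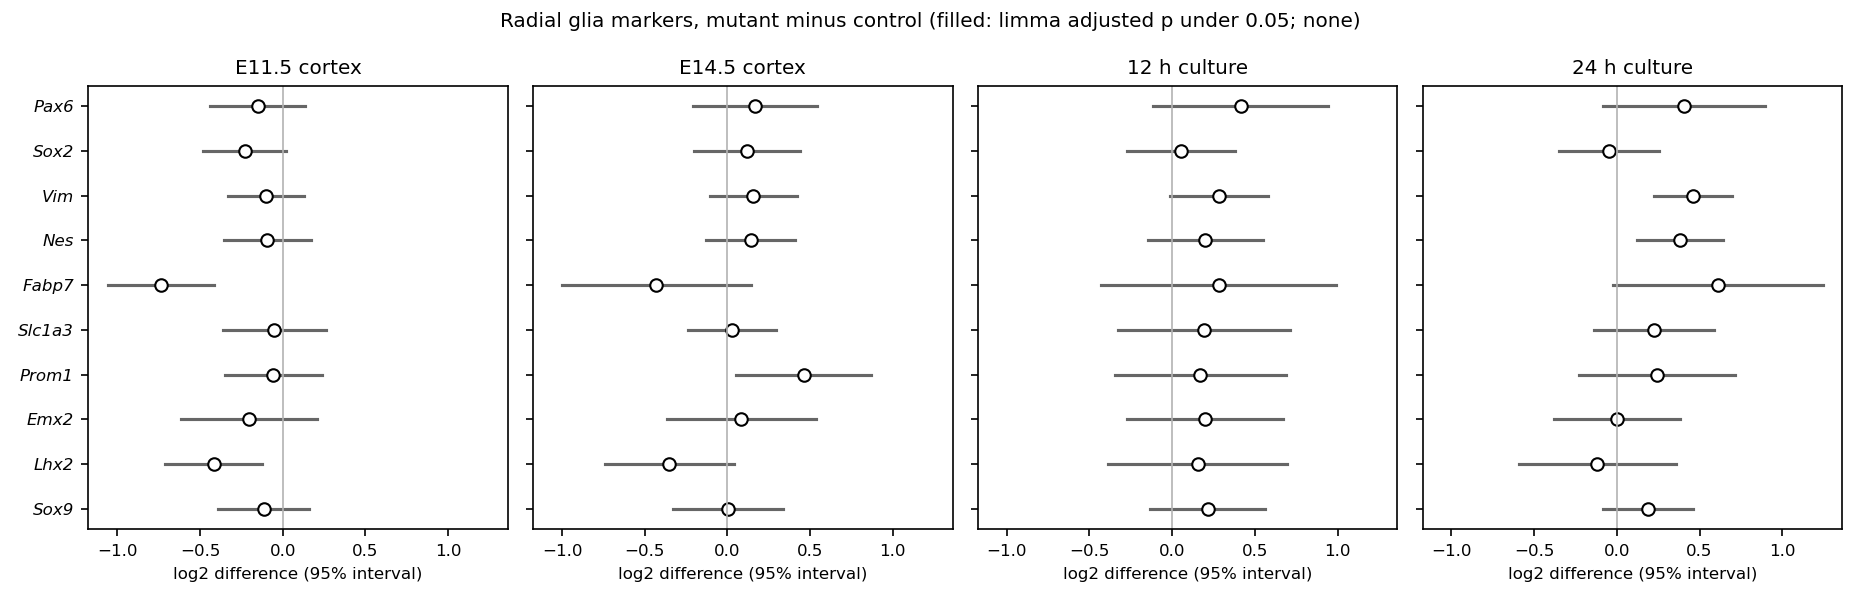
Fitted log2 difference between mutants and controls (x axis, mutant minus control) with its 95% interval for each radial glia marker (y axis) in the 4 conditions, 3 embryos per genotype, all points open because none passed the adjusted threshold. Points lie left of 0 for all 10 markers at E11.5 and right of 0 for all 10 at 12 h.

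At E11.5 all 10 markers were lower in the mutants by point estimate, with a median log2 difference of -0.13 against 0.02 over all genes, and 2 of them, Fabp7 and Lhx2, did not overlap between genotypes. The same 2 had an unadjusted p under 0.05, as did 7.39% of all genes. Mutants lay wholly below controls for 6.11% of all genes. Fabp7 stood at 304, 210 and 260 among mutants and 416, 439 and 420 among controls, with every mutant below every control. The SD of these controls was 2.86% of their mean, the lowest of the 8 groups of Fabp7, where the median was 32.9%. The log2 difference was -0.74 (SE 0.15, 95% interval -1.06 to -0.41, unadjusted p 0.000449, adjusted p 0.293 with limma). It was -0.86 to -0.60 when single embryos were left out, -0.74 with the title prefix as a block (adjusted p 0.207) and -0.82 with a term for embryo sex (adjusted p 0.175). For 2 of the E11.5 mutants the data labels carry another prefix than the titles, which were used for the block. By those labels no control shares their prefix.

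Lhx2 was the other marker without overlap. It stood at 2255, 1611 and 1665 among mutants and 2352, 2447 and 2507 among controls (-0.42, SE 0.13, adjusted p 0.606), and mutant 1 was close to the controls. The other 8 differences lay between -0.23 for Sox2 and -0.05 for Slc1a3, each with an interval that included 0. edgeR and DESeq2 were not run at this age. In 1 control library 1 read was worth 1.008 normalized read counts, too near 1 for the check on recovered reads used here, although its values were whole numbers of reads. Markers of other cells also differed in level at E11.5. The point estimates of all 10 postmitotic neuron markers were negative with 0 passing, and their summed level was 10370 to 11559 in mutants and 10080 to 15037 in controls. Ventral telencephalon markers were negative in 7 of 7 tested (980 to 1210 against 1417 to 1674). Positive point estimates were found for 5 of 5 choroid plexus markers tested (1115 to 1191 against 835 to 958), 6 of 7 endothelial markers (1292 to 1484 against 1105 to 1248), 6 of 6 dividing cell markers (19071 to 20788 against 17632 to 19805) and 7 of 7 liver markers tested (126 to 994 against 71.5 to 134), with 0 passing in each list. The part of these markers in the values of Fabp7, Lhx2 and the other radial glia markers was not tested.

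At E14.5 the signs were mixed, 8 positive and 2 negative, and Vim was the marker without overlap, against 7.02% of all genes with mutants wholly above controls. Vim stood at 3062, 3236 and 3614 among mutants and 2995, 2890 and 2990 among controls (0.16, 95% interval -0.11 to 0.42, adjusted p 0.7). Prom1 stood at 388, 329 and 394 against 218, 248 and 356, overlapping through 1 control (0.46, SE 0.19, unadjusted p 0.03, adjusted p 0.512), and this was the one marker with an unadjusted p under 0.05, against 9.1% of all genes. Its difference was 0.67 without control 5 and 0.31 without control 3. edgeR and DESeq2 each called 0 of 10.

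Fabp7 and Lhx2 again had negative differences at E14.5, but with overlapping groups. Fabp7 stood at 351, 438 and 692 among mutants and 854, 664 and 459 among controls (-0.43, 95% interval -0.999 to 0.14, adjusted p 0.627). Lhx2 stood at 1182, 1494 and 1994 against 1788, 2155 and 1898 (-0.35, -0.74 to 0.04, adjusted p 0.572). Single embryos moved both values. Without mutant 6 they were -0.70 for Fabp7 and -0.55 for Lhx2, and without mutant 1 they were -0.21 and -0.17. In both genes the 2 female mutants were the lowest. With a term for embryo sex the differences turned to 0.12 for Fabp7 and 0.038 for Lhx2. All E14.5 controls were male, so this term leaves only mutant 6 to compare with the controls. Over both ages together, with 6 embryos per genotype, Fabp7 differed by -0.58 (SE 0.17, adjusted p 0.306) and Lhx2 by -0.38 (SE 0.12, adjusted p 0.344), where 0.139% of genes passed and 0 of the 10 markers did. For Fabp7 and Lhx2 the unadjusted limma p were 0.0032 and 0.0047, and 8.71% of all genes had one under 0.05. An exact permutation test of genotype within age gave p 0.03 and 0.035, unadjusted for the 10 markers and without a term for sex. Microglial markers were higher by point estimate in E14.5 mutants, 8 of 8 with 1 passing, and summed to 812 to 997 against 429 to 498. Postmitotic neuron markers were negative in 9 of 10 with 1 called lower, and summed to 36420 to 38286 in mutants against 44936 to 48626 in controls. Dividing cell markers were positive in 4 of 6 and negative in 2 with 0 called, and summed to 11568 to 14078 against 8848 to 10886. Liver markers were negative in 7 of 7 tested with 0 called, and summed without Ttr to 5.52 to 13.5 against 9.41 to 1047. The part of these markers in the E14.5 differences was not tested.

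At 12 h all 10 point estimates were positive, with a median of 0.20 against -0.02 over all genes, and Pax6 was the marker without overlap, against 5.09% of genes with mutants wholly above controls. Pax6 stood at 253, 298 and 313 among mutants and 252, 157 and 251 among controls, a gap of under 2 normalized read counts between the nearest libraries (0.41, 95% interval -0.11 to 0.94, adjusted p 0.913), and without control 4 its difference was 0.19. Vim differed by 0.28 (-0.01 to 0.58, adjusted p 0.913). The other differences were 0.05 to 0.28, and 0 markers had an unadjusted p under 0.05, against 4.85% of all genes, with 0 called by edgeR and 0 by DESeq2.

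Markers of other cells differed in level between the 12 h genotypes as well, with 0 passing in any list. Choroid plexus markers were positive in 5 of 5 tested, all 5 with an unadjusted p under 0.05, and summed to 4812 to 16314 in mutants against 1110 to 3870 in controls. Intermediate progenitor markers were positive in 7 of 7 tested (3645 to 4316 against 3081 to 3364), and liver markers in 9 of 10 tested. Erythroid markers were negative in 9 of 9 (69448 to 108625 against 106640 to 153171) and postmitotic neuron markers in 9 of 10 (35339 to 43821 against 41529 to 52373). The part of these markers in the values of the radial glia markers was not tested.

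At 24 h Vim, Nes and Pax6 were higher in all 3 mutant cultures than in any control, 3 of 10 markers against 7.15% of all genes. Vim and Nes had an unadjusted p under 0.05, as did 10.6% of all genes. For Vim the mutants (7954, 8636 and 8605) were clear of the controls (5732, 6628 and 5971), a 1.38-fold difference (0.46, SE 0.11, 95% interval 0.23 to 0.70, unadjusted p 0.000856, adjusted p 0.103 with limma). Vim passed under quantile normalization (0.51, adjusted p 0.0354) and with DESeq2 (0.48, adjusted p 0.00643), and did not with edgeR (0.48, adjusted p 0.1). Nes, at 1488, 1259 and 1336 against 987, 1085 and 1059, differed by 0.38 (SE 0.12, adjusted p 0.247). For Pax6 the genotypes were almost in contact, at 188 in the lowest mutant and 186 in the highest control (0.41, -0.08 to 0.89, adjusted p 0.575), and without control 4, the lowest library, the difference of Pax6 was 0.14.

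The remaining 7 markers overlapped between genotypes at 24 h. Fabp7 had a large but uncertain difference of 0.61 (95% interval -0.03 to 1.25, adjusted p 0.491), which was 0.27 without control 4, 0.33 without mutant 6 and 0.93 without control 3. Sox2 differed by -0.05 (-0.35 to 0.25), Emx2 by 0.0023 (-0.38 to 0.38) and Lhx2 by -0.12 (-0.59 to 0.36). Slc1a3, Prom1 and Sox9 differed by 0.22, 0.24 and 0.19. Differences as large as the upper ends of these intervals remain possible.

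Several other measures separated the genotypes at 24 h. Besides depth and the share of Gm42418, choroid plexus markers summed to 5095 to 17084 in mutants and 896 to 3657 in controls, with 2 of 5 tested called higher. Liver markers were also higher, with 3 of 6 tested called, and summed to 5245 to 16523 against 769 to 3510, counting Ttr, which the choroid plexus makes too. Dividing cell markers summed to 5482 to 6418 against 4264 to 5200, with 0 of 6 called, and postmitotic neuron markers to 35892 to 42868 against 45424 to 50933, with 1 of 10 called lower. Markers of mesenchyme and meninges, tissues that also make vimentin, were positive in 5 of 5 tested with 0 called, and summed to 234 to 292 in mutants against 149 to 182 in controls. With the share of Gm42418 as a term in the fit the difference of Vim was 0.33 (adjusted p 0.939), that of Nes 0.31 and that of Lhx2 0.58, so that Lhx2 changed sign. This share did not overlap between the genotypes at 24 h, so the fit can hardly separate it from genotype. The part of the choroid plexus, liver, mesenchymal, dividing cell and neuron markers in the Vim and Nes values was not tested.

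Whether the genotype difference itself changed between conditions was tested by interaction terms. With limma 0 of 10 markers passed for genotype by age, where 0% of genes passed, and 1 marker had an unadjusted p under 0.05 against 7.84% of genes. The interactions of genotype with 12 h culture and with 24 h over 12 h called 0 of 10 markers each, where 0% of genes passed. For both, 0 markers had an unadjusted p under 0.05, against 7.04% and 4.14% of genes.

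A further 29 genes known from radial glia, among them Notch targets, growth factors and metabolic enzymes, were read beside the 10 markers. With age 11 of 28 tested were higher and 13 lower, where 24.1% of all genes passed as higher and 29.5% as lower. Aldoc, a glycolytic enzyme of glia, rose 27.0-fold, Slc1a2, the other main glial glutamate transporter, 2.23-fold and Ptn, a secreted growth factor, 2.12-fold. Hmga2, a chromatin protein of early progenitors, was 22.6-fold lower, Gli3, a transcription factor of Hedgehog signalling, 2.22-fold lower and the Notch target Hes5 2.19-fold lower.

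In 12 h cultures 4 of these 29 genes were higher than in the cortex and 17 lower, against 16.2% and 17.7% of all genes. Hes5 was 18.7-fold lower (log2 difference -4.23, SE 0.15, adjusted p 2.15e-14), the size of change that none of the 10 markers reached. Ptn was 2.57-fold and Id4, an inhibitor of differentiation factors, 2.24-fold lower. Hopx, a homeobox gene of radial glia, was 4.52-fold higher and Hmga2 1.74-fold higher. From 12 h to 24 h, Tnc, an extracellular matrix protein (2.19-fold), Hes5 (1.71-fold) and Ptn (1.62-fold) rose and Gli3 fell (1.60-fold lower), the only 4 of 29 to pass. Of all genes 0.664% passed at this step. Between genotypes 1 of the 29 passed in any condition, Ednrb, an endothelin receptor, which was 2.18-fold higher in 24 h mutant cultures (1.13, SE 0.21, adjusted p 0.0421). Of all genes 0.271% passed between genotypes at 24 h. The call of Ednrb was lost without any 1 of 5 of the 6 libraries, the exception being control 4. With a term for the share of Gm42418, which did not overlap between the genotypes, its difference was 0.88 (adjusted p 0.939). With a term for embryo sex its difference was 0.99, a value that rests on mutant 6 against the controls. The call was also lost at a pseudocount of 0.1, under quantile normalization and in the fit of all 24 libraries (adjusted p 0.0504 to 0.0662). The adjusted p of Ednrb was 0.00102 to 0.939 over all alternatives. At 24 h 22 of the 29 point estimates were positive, and 12 had an unadjusted p under 0.05, against 10.6% of all genes.

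The 10 markers did not follow 1 common course over the 8 groups. The gene nearest to each marker in its group means was looked for among 9660 genes with a mean of at least 50, as the root mean square difference of centred log2 levels over the 8 groups. This was done for the 9 markers whose group means spanned at least 1 on the log2 scale, which left out Sox2. Prom1 and Emx2 were near one another (0.13), Emx2 being 14th nearest to Prom1. For the other 7 the nearest marker ranked no better than 304th, the best rank being that of Prom1 for Nes (0.28). Lhx2 and Sox9 differed by less (0.23), but other genes were nearer to each, so that they ranked 784th and 864th. The genes nearest to Prom1 were E2f2, Mcm3 and Cenpe (0.08 to 0.09), and those nearest to Emx2 were Kpnb1, Cenpe and Tle1 (0.09 to 0.10). Nearest to Slc1a3 was Eomes (0.13), the gene of an intermediate progenitor transcription factor, and nearest to Pax6 were Dach1, Fech and Prc1 (0.13 each). Jam3 was nearest to Nes (0.08), Hpcal1 to Vim (0.15), Nim1k to Fabp7 (0.23), Ssbp3 to Lhx2 (0.06) and Pgd to Sox9 (0.06). The points are means of 3 libraries and share embryos across the E14.5 groups.

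Spread between embryos also separated the markers. The coefficient of variation within the 8 groups had a median of 7.80% for Vim and 8.44% for Nes, against 32.9% for Fabp7 and 26.4% for Lhx2. For Fabp7 it ran from 2.86% in E11.5 controls to 46.6% in 12 h mutants. When the 8 group means of Fabp7, Sox2 or Emx2 were put in order, all 7 pairs of neighbours overlapped in their libraries. For Vim 3 of 7 pairs overlapped, and its lowest mean was in E14.5 controls (2959) and its highest in 24 h mutants (8398).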

How the data were processed

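RNA from 24 mouse samples was sequenced from transcript 3′ ends with a stranded oligo(dT) kit. According to the submitters' processing notes and the study's methods, the authors aligned reads to GRCm38 with TopHat2 2.0.10 on Bowtie 1.0.0 with SAMtools 0.1.19, counted them per gene with HTSeq 0.6.1 and used DESeq2. The deposited signal values are read counts divided by 1 size factor per library. In all 24 libraries the values above 0 were whole numbers of reads, within 0.01. In 1 of them, an E11.5 control, 1 read was worth 1.008. A separate check on the unit did not accept its recovered reads, because this value was too near 1. Count tests were therefore left out wherever that library enters. A 24 h mutant library at 1.012 was accepted. Gene positions came from the GENCODE annotation of the same build.

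Levels were compared with limma 3.58.1 (R 4.3.3, trended variance) on log2(value + 1), over genes whose mean over the fitted libraries reached 10, with Benjamini-Hochberg adjustment at 0.05. Such fold changes understate those of low genes. The p-values measure the spread between libraries within groups, from 3 embryos per group. For the culture steps the main fit took the 18 libraries of E14.5 embryos as independent and did not use their pairing. The fit with the embryo as a replicate block did. Alternatives were other pseudocounts (0.1 and 5), filters, scalings and a threshold of 0.1, terms for sex and for the share of Gm42418, a fit of all 24 libraries, single libraries left out, and, on the recovered reads, edgeR 4.0.16 and DESeq2 1.42.0. Scripts were tested on simulated data. The same E14.5 embryos gave cortex and cultures, so the labels pair them, and deviations of 18 such pairs correlated at -0.11 to 0.24 (median 0.14). Where sex enters it was read from Xist over 1000.

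The members and lists were chosen with earlier results of these data known. Of the 29 other genes, those past the threshold with the smallest p are named, up to 3 in each direction and comparison (1 is not reported here), and for each marker the nearest genes by rank. The motifs were picked after the values had been seen.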

Additional observations from a re-analysis of the deposited data

How the results depend on the processing

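Over 72 differences of single radial glia markers and 1594 alternative values of them, 1524 kept direction and side of the threshold, 18 newly passed, 0 lost the threshold and 52 changed sign. Differences that changed sign had a size of at most 0.43 in the main test and had not passed. The cause of these changes was not tested. Among counts of markers, DESeq2 and quantile normalization each called 1 marker higher in 24 h mutants instead of 0, and between 12 h and 24 h a threshold of 0.1 and the fit of all 24 libraries called 1 and DESeq2 2 instead of 0. With the embryo as a replicate block 5 markers instead of 4 were lower at 12 h, Lhx2 being added (-0.42, adjusted p 0.0347), and the block changed no other call of a marker. It called 4888 genes against 4589 at 12 h and 132 against 90 from 12 h to 24 h. Lhx2 with age passed at a pseudocount of 5 (adjusted p 0.0497).

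With a term for the share of Gm42418 the sign changed at E11.5 for Prom1 (0.14), at E14.5 for Sox9 (-0.056), at 12 h for Sox2 (-0.0060) and Slc1a3 (-0.020), at 24 h for Prom1 (-0.056), Emx2 (-0.23) and Lhx2 (0.58), and from 12 h to 24 h for Lhx2 (-0.16). At 24 h this share did not overlap between the genotypes, so the fit can hardly separate it from genotype. With a term for sex the sign changed at E14.5 for Fabp7 (0.12), Slc1a3 (-0.020), Lhx2 (0.038) and Sox9 (-0.15), at 12 h for Sox2 (-0.015), Prom1 (-0.012) and Sox9 (-0.021), and at 24 h for Sox2 (0.078), Slc1a3 (-0.077) and Lhx2 (0.22). All controls were male in these comparisons, so the values with a term for sex rest on the male mutant against the controls. Rescaling without Gm42418 and mitochondrial genes turned Sox9 at E14.5 (-0.00023) and Sox2 at 24 h (0.019), quantile normalization turned Sox2 at 24 h (0.038), and edgeR and DESeq2 turned Sox9 at E14.5 (-0.026 each). That rescaling put the median of all genes at -0.12 for 12 h culture over cortex, against -0.06 as deposited, and no call of a marker reversed.

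With single libraries left out, the genotype differences that changed sign ranged at E11.5 from -0.15 to 0.029 for Slc1a3 and -0.19 to 0.026 for Prom1. At E14.5 they ranged from -0.12 to 0.24 for Emx2, -0.14 to 0.12 for Sox9, -0.028 to 0.074 for Slc1a3 and -0.011 to 0.30 for Pax6. At 12 h they ranged from -0.062 to 0.45 for Lhx2, -0.059 to 0.13 for Sox2, -0.055 to 0.42 for Slc1a3, -0.057 to 0.30 for Prom1 and -0.074 to 0.48 for Fabp7. At 24 h they ranged from -0.087 to 0.13 for Emx2, -0.38 to 0.12 for Lhx2 and -0.13 to 0.10 for Sox2. From 12 h to 24 h the ranges were -0.033 to 0.22 for Lhx2 and -0.078 to 0.16 for Slc1a3. Of 42 genotype differences, none of which passed, 14 thus changed sign and 19 more moved by over 1.5 times without 1 library. Of the 14 called differences with age or culture, 0 did either.

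Counts over all genes moved more. Genotype called 2 genes at E11.5 (0 to 17 under the alternatives) and 10 at E14.5 (1 to 74). It called 0 at 12 h (0 to 77, the term for sex left out because it rests on the male mutant). At 24 h it called 36 (0 with a term for the share of Gm42418, which did not overlap between genotypes, to 182 with DESeq2). Over both ages it called 19 (6 to 35). Age called 7316 (5715 to 8221), 12 h culture 4589 (2753 to 5744) and 24 h over 12 h 90 (29 to 209). The interactions called 0 each, and at most 6 under an alternative. edgeR and DESeq2 were not run where the E11.5 control without accepted reads enters. Depth limits Pax6, Fabp7, Prom1 and Emx2 in culture, where the fewest reads were 63 to 158.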
